A study of Mus musculus with 88 samples.

Results

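The replication-dependent histone genes were followed in 3 brain regions of stressed and unstressed mice. Members were all genes whose GENCODE M21 symbol starts with Hist1h, Hist2h, Hist3h or Hist4h, without the symbols that end in -ps. This gave 69 of 55450 annotated genes, of which 39 of 18946 were in the medial prefrontal cortex (mPFC) table, 67 of 48795 in the bed nucleus of the stria terminalis (BNST) table, and 29 of 19559 in the ventral hippocampus (vHPC) table. By the histone they encode, 6 were H1, 20 H2A, 18 H2B, 12 H3 and 13 H4 genes. GENCODE annotates 67 of them as protein coding and the H2A members Hist1h2aj and Hist1h2al as pseudogenes, and neither of these was in the mPFC or vHPC table. The mice were males of the inbred strains C57BL/6Crl (B6) and DBA/2Crl (D2), as the labels spell them (C57BL/6NCrl and DBA/2NCrl in the study's methods), labelled as 8 weeks old. Chronic social defeat stress (CSDS), a repeated confrontation with an aggressive mouse, was given to some of them, and the defeated mice were then classed by a social avoidance test as resilient, resembling controls of their strain, or susceptible, avoiding the other mouse. Brain tissue was taken 6 to 8 days after the last defeat, and RNA was sequenced after depletion of ribosomal RNA without selection for poly(A) tails. The mPFC libraries were from 6 control, 6 resilient and 6 susceptible B6 mice and from 6 control and 8 susceptible D2 mice. The BNST libraries were from 5 mice of each B6 group and from 13 D2 mice, 5 of them control, 3 resilient and 5 susceptible. Those of the vHPC were from 6 control, 8 resilient and 3 susceptible B6 mice and from 6 control and 5 susceptible D2 mice, and for 7 mice there was a library of each of the mPFC and vHPC. Resilient D2 mice were analysed in the BNST alone, no female was studied, and the class of a mouse was itself an outcome of the stress.

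Histones are the proteins around which DNA is wound. H2A, H2B, H3 and H4 build the core of the nucleosome, and H1 is the linker histone that binds where DNA enters and leaves it. Replication-dependent histone genes lie in clusters, are mostly without introns, and are transcribed mainly in S phase, when new DNA is packed. Their mRNA ends in a short hairpin, the stem-loop, which binds stem-loop binding protein, in place of a poly(A) tail, and some of these genes are also known to give longer polyadenylated transcripts in cells that have stopped dividing. Most cells of the adult brain do not divide, so these mRNAs are usually low there, while replacement histones such as H3.3, encoded elsewhere, are made throughout life.

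The stem-loop is shown because it marks an mRNA of this kind and because the H4 genes that carry it differed most between the groups. It was searched for in the annotated transcripts as 16 bases in the direction of transcription. These read GG, any 2 bases, CTT, any base, T, any base, AG, any 2 bases and CC. A match was kept only if its first 6 and last 6 bases were complementary and could form the stem. Such a match was present in 46 of the 69 members (66.7%) and in 61 of all 55450 genes (0.11%). The same search on the opposite strand gave a match in 14 genes (0.025%). The H4 genes below and the H1 gene Hist1h1c are printed with 5 bases on each side where the annotated transcript has them, as DNA, with the stem-loop in capitals:

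Hist1h4m: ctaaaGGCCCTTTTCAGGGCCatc

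Hist1h4n: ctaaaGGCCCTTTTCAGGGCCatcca

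Hist1h4c: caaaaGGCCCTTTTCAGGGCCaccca

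Hist1h4a: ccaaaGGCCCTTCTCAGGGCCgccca

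Hist1h4i: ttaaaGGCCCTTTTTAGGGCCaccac

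Hist4h4: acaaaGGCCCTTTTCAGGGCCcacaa

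Hist1h1c: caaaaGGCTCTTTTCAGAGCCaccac

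The stem-loop of Hist1h4m lies at chr13:21812129-21812144 on the plus strand of GRCm38, that of Hist1h4n at chr13:21831798-21831813 on the minus strand, and that of Hist4h4 at chr6:136803998-136804013 on the minus strand. Hist1h4c, Hist1h4d, Hist1h4f, Hist1h4h, Hist1h4m, Hist1h4n and Hist4h4 held the same 16 bases, although their levels differed widely. Annotated transcripts ended more than 100 bases after the stem-loop in 23 members and within 100 bases in another 23, and 23 had no match. Some of these last 23 have short annotated transcripts, such as Hist1h4k with 312 and Hist2h2bb with 381 exon bases. Such an annotation may stop before the stem-loop, so a missing match does not show that the mRNA lacks it. Of the tested members with a long annotated end, 7 of 17 (mPFC), 8 of 20 (BNST) and 7 of 17 (vHPC) had a mean over 10 CPM, the reads of a gene scaled to the same library total, against 0 of 9, 1 of 7 and 0 of 6 with a short end. Per kb of annotated exon the order was the other way, with median levels of 2.704, 2.236 and 2.413 log2 CPM per kb for long ends and 2.832, 3.139 and 2.44 for short ends.

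The octamer, a short element known from H2B promoters that binds the factor Oct-1, is shown because it set H2A and H2B genes apart from the other classes. It was searched for as ATTTGCAT on either strand (ATGCAAAT on the other) in the RefSeq promoters of GRCm38.p6, from 250 bases before to 50 after the start, and was in 570 of 32851 promoters (1.74%). Promoters were found for 61 histone genes, and 14 of their 62 promoters (22.6%) held it, 7 of 17 for H2A, 7 of 17 for H2B, and none of the 6 H1, 10 H3 and 12 H4 promoters. Where an H2A and an H2B gene lie head to head, a site can serve as a match for both, as for Hist1h2bg and Hist1h2ae at chr13:23571333-23571356. Sites are printed in the direction of each gene with the octamer in capitals:

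Hist1h2bg: agtcccttATTTGCATagaacctc

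Hist1h2ae: gaggttctATGCAAATaagggact

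Hist1h2ac: gtgggattATGCAAATgaagtttc

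Hist1h2bb: agtctcttATTTGCATaaagcctt

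The 14 matches are 11 distinct sites, since 3 are shared by an H2A and an H2B gene. The octamer ran in the direction of transcription in the H2B genes and against it in the H2A genes. For the 3 shared sites this is given by the head-to-head arrangement. It also held for the 4 H2B and 4 H2A genes whose site was matched for no other member. Of these sites, those of Hist1h2ac, Hist2h2ac and Hist1h2bm also lie between head-to-head genes, with Hist1h2bc, Hist2h2be and Hist1h2aj on the other side. There too the orientations within a pair are tied by the arrangement. A match is a description of these letters and not a measured binding site.

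The likeness of the members to each other limits what a read can tell. Of all stretches of 96 bases, the read length in the mPFC and BNST, 100% of those in Hist1h4d, 95.4% in Hist4h4, 85.5% in Hist1h4c, 84.3% in Hist1h4i and 67.6% in Hist1h4a occurred in no other annotated gene. In Hist1h4m this held for 11.7%, and 88.3% of its stretches were also in Hist1h4n. In Hist1h2af it held for 19.1%, with 65.8% also in Hist1h2ad, and in Hist2h2bb for 0%. All 20 H2A genes overlapped an annotated antisense gene, and whether the counting used strand is not given in the sources used here. The values of Hist1h4m, Hist1h4n, Hist1h2af and Hist2h2bb, and those of the H2A genes, are therefore less certain than those of Hist1h4d, Hist4h4 or Hist1h4c.

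Read totals were 17264800 to 37034746 per mPFC library, 11825757 to 25793910 per BNST library and 8410633 to 26439053 per vHPC library. The 3 regions were prepared with different kits and normalized separately, so region and kit cannot be told apart and no test was made between regions. The markers of the labelled tissue, Slc17a7, Tbr1 and Neurod6 in the mPFC, Gad1, Gad2, Slc32a1 and Meis2 in the BNST, and Prox1, Zbtb20, Neurod6 and Wfs1 in the vHPC, all had a mean of at least 1 CPM there. Of the BNST libraries, B6 susceptible mouse 3 and D2 control mouse 2 stood apart from the other 26 in the sum of all members. In B6 susceptible mouse 3 the histone genes summed to 809.0 CPM, in D2 control mouse 2 to 107.3 CPM, and in the others to between 177.4 and 442.6 CPM. BNST calls are given with and without these libraries, and other BNST values include both. The values were measured in bulk tissue, where fewer cells of a type and less RNA per cell cannot be told apart.

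Histone mRNA was detected in all 3 regions, and an H4 gene had the highest level per kb in each. Hist1h4d, which encodes histone H4, had a mean of 6.61 ± 0.33 log2 CPM (SD, n = 32) in the mPFC, 5.15 ± 0.78 (SD, n = 28) in the BNST and 4.83 ± 0.17 (SD, n = 28) in the vHPC. Per kb of annotated exon it was first of all members in the mPFC at 6.42 log2 CPM per kb and in the vHPC at 4.64, and in the BNST it followed Hist1h4h, another H4 gene, at 4.96 against 5.28. These BNST levels of Hist1h4h and Hist1h4d lay within the spread between libraries.

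The highest gene of each class per kb differed between regions for every class but H3. For H1 it was Hist1h1c in the mPFC and vHPC and Hist1h1e in the BNST, for H2A Hist2h2ac, Hist1h2ak and Hist3h2a in the mPFC, BNST and vHPC, for H2B Hist2h2bb, Hist1h2bc and Hist3h2ba, and for H3 Hist1h3e in all 3. Hist1h2ak had a mean of 3.57 ± 1.16 log2 CPM in the BNST and 0.78 ± 0.43 in the mPFC. Hist2h2bb had 3.46 ± 0.21 in the mPFC and −0.46 ± 1.03 in the BNST. H3 genes were the lowest class in the mPFC, with a median of 0.04 log2 CPM over 3 genes, and in the vHPC only 2 of the 12 H3 genes were in the table.

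**Figure D1:**
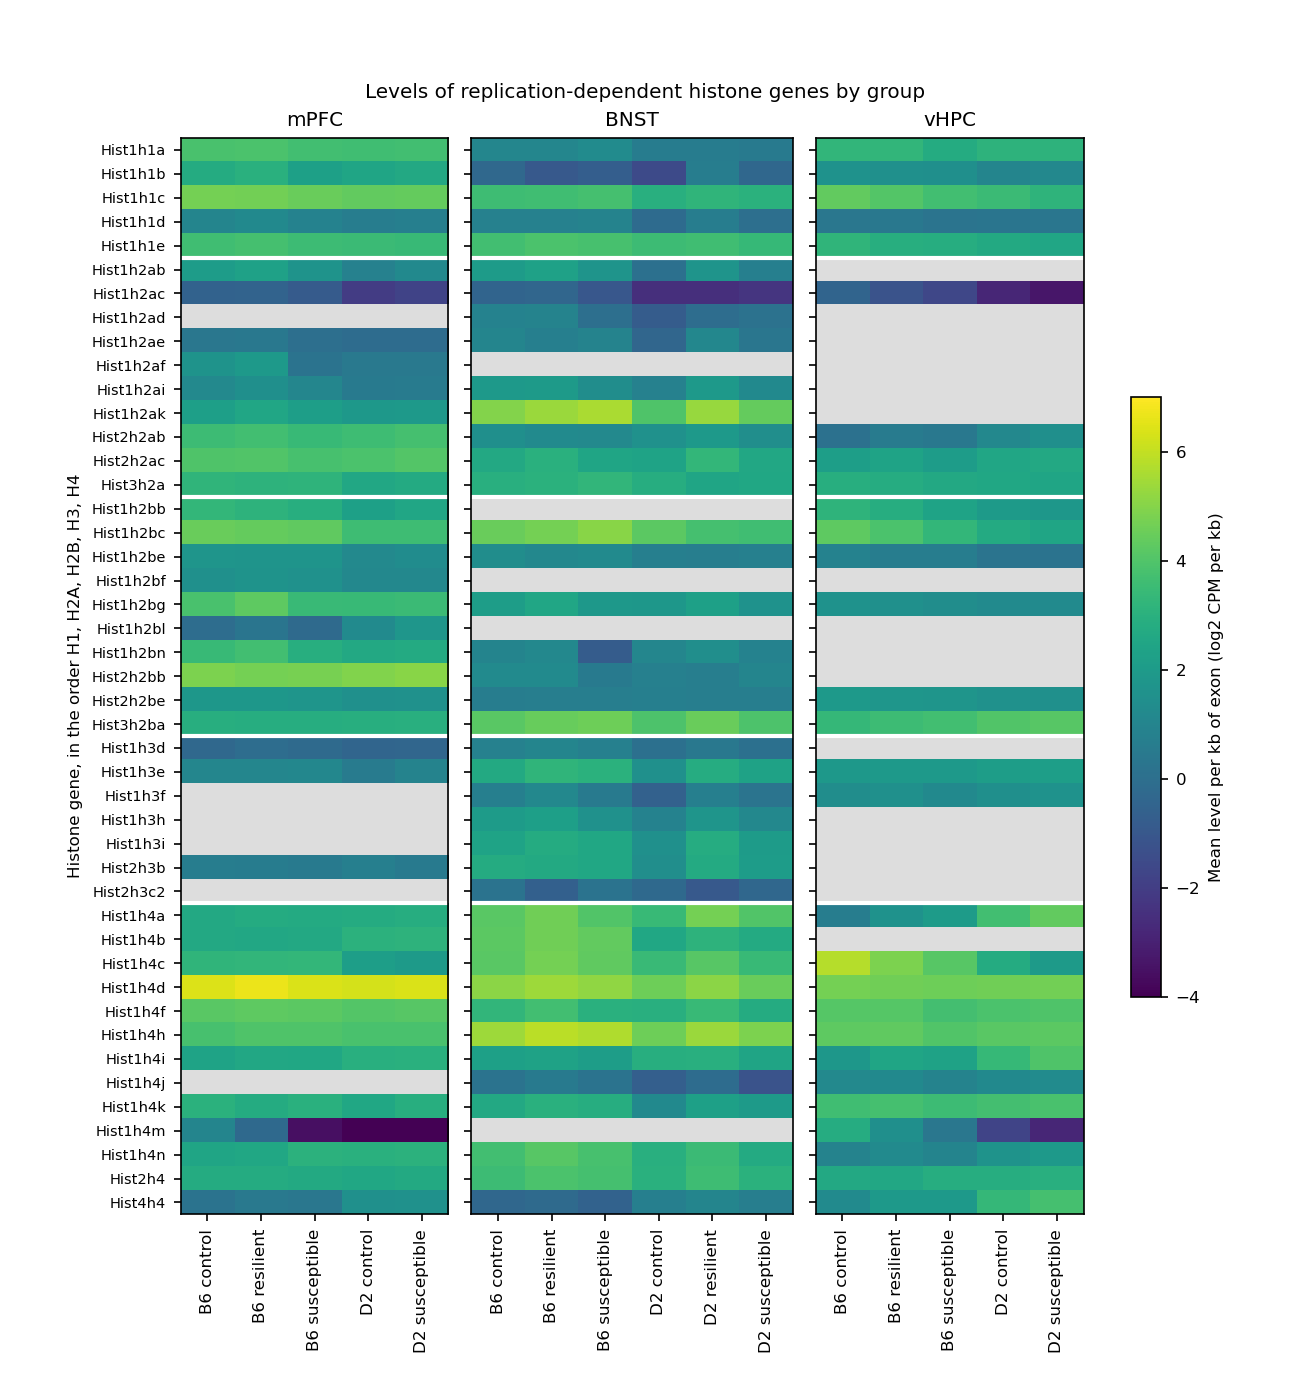
Mean level of each histone gene (log2 CPM per kb of annotated exon, color) by group in the mPFC, BNST and vHPC, with genes in the order H1, H2A, H2B, H3 and H4. Grey marks genes that were absent from a table or under the count minimum in the BNST. Hist1h4d is the brightest row of the mPFC, and Hist1h4m is dark in the D2 groups of the mPFC and vHPC.

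Low counts could be followed in the BNST alone, whose table holds counts and was deposited without a filter, while the mPFC and vHPC tables held only genes with at least 1 CPM in 6 samples. Of the 67 BNST members, 4 had no read in any of the 28 libraries, 8 had 1 to 20 reads in all libraries together, and 15 had between 42 and 299 reads and were not tested. The remaining 40 passed the minimum of 1 CPM in 6 libraries, and 11 of these still had a median under 20 reads per library, while 13 had a median over 100. Every member without a read or with at most 20 was removed before testing, so the counts below concern the 40 that passed and not all members.

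Strain was compared first, in the controls. In mPFC controls, 17 of 39 members differed between D2 and B6 at an adjusted p under 0.05 (limma), 5 higher and 12 lower in D2, beside 13.4% of all 18946 genes that were higher and 14.4% that were lower. In vHPC controls, 20 of 29 members differed, 8 higher and 12 lower in D2, beside 30.2% of all 19559 genes that were higher and 29.1% that were lower. In the BNST, 0 of 40 differed in edgeR's quasi-likelihood test, beside 2.51% of all 17515 genes, and 6 had an unadjusted p under 0.05. DESeq2 called 1, beside 3.77% of all genes. The median difference over the members on the log2 scale was −0.31 (mPFC), −0.34 (BNST) and −0.09 (vHPC), beside 0.00, 0.04 and 0.01 over all genes. The BNST value includes D2 control mouse 2, which had the lowest level of 28 of the 40 members tested. D2 and B6 controls did not overlap for 9 of 39 members in the mPFC, 2 of 40 in the BNST and 14 of 29 in the vHPC, beside 11.7%, 3.41% and 36.7% of all genes. The vHPC shares of members are thus to be read against a background in which most genes passed.

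Among H1 genes, linker histones, Hist1h1c was lower in D2 controls than in B6 controls, by a log2 fold change of −0.34 ± 0.10 (SE) in the mPFC (adjusted p = 0.0145) and −0.87 ± 0.12 in the vHPC (adjusted p = 9.31e-07). In the mPFC its levels were 5.08 to 5.64 log2 CPM in B6 and 4.79 to 5.14 in D2 controls, which overlapped. In the vHPC they were 4.63 to 5.18 in B6 and 3.92 to 4.29 in D2 controls, which did not.

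Among H2A genes, Hist1h2ac differed most, with a fold change of −1.50 ± 0.27 in the mPFC (adjusted p = 7.37e-05) and −2.35 ± 0.18 in the vHPC (adjusted p = 2.58e-11). Its lowest, median and highest levels in the vHPC were 0.302, 0.949 and 1.301 log2 CPM in B6 controls and −1.98, −1.56 and −0.82 in D2 controls. All D2 controls were below all B6 controls there, and the same held in the mPFC, where B6 controls began at 0.47 and D2 controls ended at −0.10. In the BNST the difference was of the same direction at −1.89 ± 0.69, with 25 to 28 reads per B6 control and 2 to 12 per D2 control, and did not pass (adjusted p = 0.2). Hist1h2ab and Hist1h2af were lower in D2 in the mPFC, at −1.25 ± 0.31 and −1.23 ± 0.38, and neither was in the vHPC table. Hist2h2ab was higher in D2 in the vHPC, at 1.05 ± 0.21 (adjusted p = 1.14e-04).

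Among H2B genes, Hist1h2bc and Hist1h2bb were lower in D2 in both the mPFC and the vHPC. Hist1h2bc lay between 4.32 and 4.75 log2 CPM in B6 and between 2.85 and 3.08 in D2 vHPC controls, a fold change of −1.52 ± 0.11 (adjusted p = 1.12e-11), and in the mPFC the change was −0.92 ± 0.11 (adjusted p = 2.18e-07). For Hist1h2bb it was −1.17 ± 0.15 in the vHPC and −1.05 ± 0.17 in the mPFC. Hist3h2ba, next to Hist3h2a on chromosome 11, was higher in D2 in the vHPC, at 0.68 ± 0.09 (adjusted p = 2.58e-07), and at 0.05 ± 0.35 it did not differ detectably in the BNST. Hist1h2bl was higher in D2 in the mPFC, at 1.31 ± 0.22 (adjusted p = 3.45e-05), from levels under 0 log2 CPM in every B6 control. A gene that low in the controls of a strain was kept in the table through other libraries, so such a call is selected in part by that filter. The same holds for Hist1h4m in the mPFC and Hist1h2ac in the mPFC and vHPC, which were under 0 log2 CPM in every D2 control. It also bears on Hist1h4m in the vHPC, where the median of the D2 controls was under 0 log2 CPM.

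H4 genes differed in both directions and by the largest amounts. Hist4h4, the H4 gene outside the large clusters, was higher in D2 in the mPFC at 1.32 ± 0.17 (adjusted p = 2.68e-07) and in the vHPC at 2.05 ± 0.16 (adjusted p = 5.21e-11). In the mPFC its medians were 1.76 log2 CPM in B6 and 3.13 in D2 controls, and the groups did not overlap. In the BNST they were 0.51 to 1.83 in B6 and 0.36 to 3.13 in D2 controls, a difference of 1.25 ± 0.53 that did not pass (adjusted p = 0.287). The lowest BNST value was that of D2 control mouse 2, and without the 2 libraries that stood apart Hist4h4 and the H2B gene Hist1h2be passed. Hist1h4i was also higher in D2, by 0.55 ± 0.13 in the mPFC and 1.54 ± 0.13 in the vHPC, and Hist1h4n by 0.54 ± 0.20 and 0.74 ± 0.16.

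Hist1h4c was lower in D2 controls of the mPFC and vHPC, by different amounts, and did not differ detectably in the BNST. In the vHPC its lowest, median and highest levels were 5.35, 5.43 and 5.77 log2 CPM in B6 controls and 2.29, 2.38 and 3.17 in D2 controls, a fold change of −3.02 ± 0.15 (adjusted p = 3.94e-15). In the mPFC they were 2.797, 2.857 and 3.154 in B6 and 1.741, 1.89 and 2.00 in D2, a change of −1.04 ± 0.13 (adjusted p = 4.10e-07). In the BNST they were 3.34, 3.78 and 4.66 in B6 and −0.07, 4.08 and 4.66 in D2, a change of −0.23 ± 0.54 (adjusted p = 0.881). The lowest BNST value was that of D2 control mouse 2, whose library stood apart, and the D2 median was above that of B6. All D2 controls were below all B6 controls in the mPFC and vHPC, and in the BNST the groups overlapped.

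Hist1h4a passed in the vHPC and not in the mPFC or BNST. Its levels there were −0.69, −0.15 and 0.15 log2 CPM (lowest, median, highest) in B6 controls and 2.494, 2.804 and 3.03 in D2 controls, a fold change of 2.98 ± 0.13 (adjusted p = 2.20e-16). In the mPFC the difference was 0.16 ± 0.10 (adjusted p = 0.222) and in the BNST 0.03 ± 0.58 (adjusted p = 0.988). In these 2 regions D2 and B6 controls overlapped. Hist1h4b pointed in opposite directions, with 0.42 ± 0.15 in the mPFC (adjusted p = 0.0319) and −1.24 ± 0.48 in the BNST (adjusted p = 0.230). Only 27.8% of the 96-base stretches of Hist1h4b were its own.

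Of the 25 members tested in all 3 regions, 14 were lower and 5 higher in D2 controls in each of them. The mPFC and vHPC calls shared 11 genes, which were 11 of the 17 mPFC calls and 11 of the 20 vHPC calls, and all 11 had the same direction. Of the 13 mPFC calls that could be tested in the BNST, 10 had the same direction and 0 passed there. The BNST directions include D2 control mouse 2, whose library stood apart, and were not counted without it. How often all genes agree between regions in this way was not computed. These counts therefore do not set the members apart from other genes. Control mice C1.7, C2.5 and D5.3 also gave a library of both the mPFC and the vHPC. Reads of both strains were aligned to GRCm38, which was built from B6, and the part of sequence differences in these values was not tested. In the vHPC, B6 and D2 controls shared no library set, so no value within a set can be had there. With library set in the fit, which compares them through sets shared with other groups, 7 of 29 passed, beside 8.4% of all 19559 genes. Markers of mature oligodendrocytes, Mbp, Mobp, Mog and Opalin, moved with strain as well. All 4 passed as lower in D2 controls in the mPFC, where they summed to 874.8 to 1757 CPM in B6 and 569.2 to 852.0 CPM in D2, and in the vHPC, where they summed to 1686 to 1942 and 669.1 to 1022 CPM. Endothelial markers, Cldn5, Flt1 and Slco1a4, moved too. In vHPC controls 3 of 3 were lower in D2, with sums of 229.2 to 249.2 CPM in B6 and 158.9 to 175.2 CPM in D2, and in the mPFC 2 of 3 were lower. Of 4 astrocyte markers 3 were lower in the mPFC and 3 in the vHPC and 1 was higher in the vHPC, of 4 microglia markers 1 was lower in the mPFC and 3 in the vHPC, and of 4 markers of oligodendrocyte precursors 1 was lower in the mPFC while 2 were higher and 2 lower in the vHPC. The part of these markers in the histone differences was not tested.

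**Figure D2:**
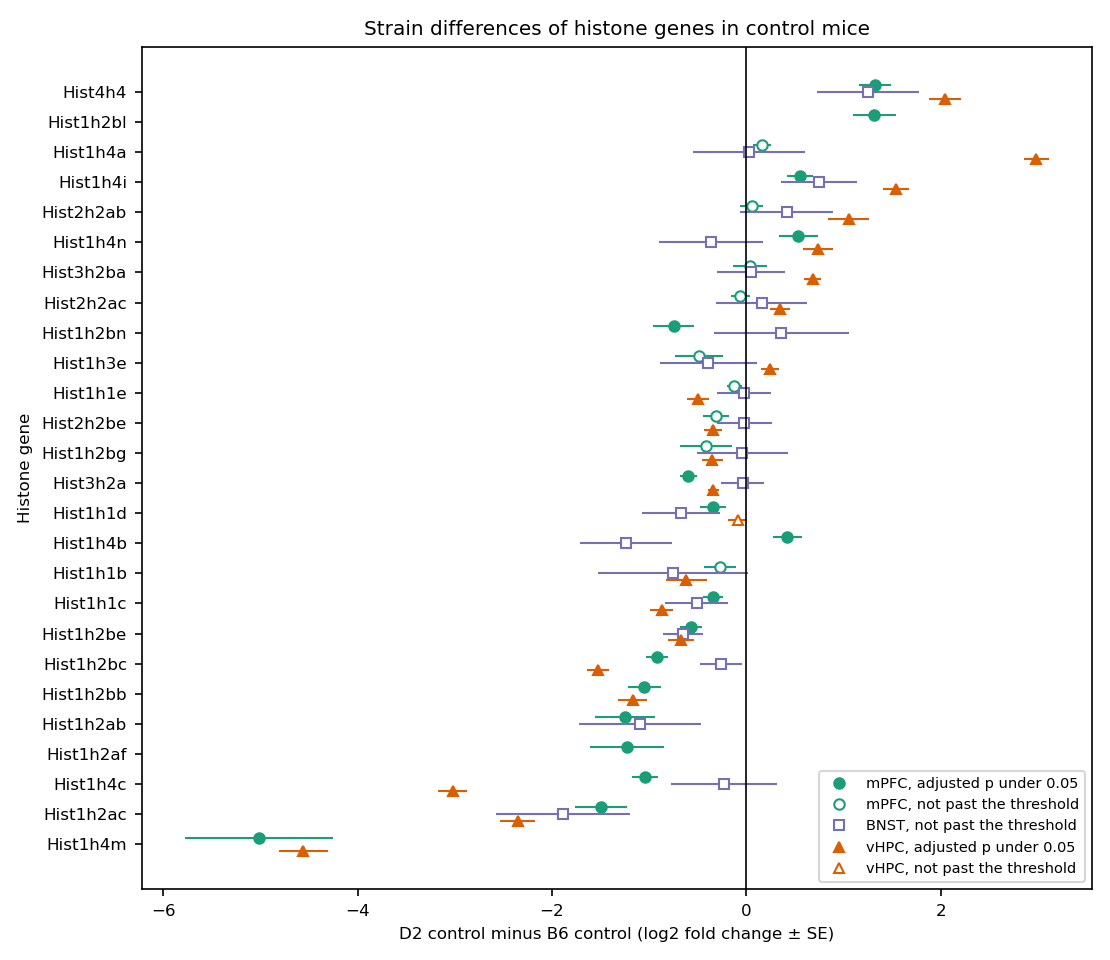
Difference between D2 and B6 controls (log2 fold change ± SE) of the members called in the mPFC or vHPC, in the mPFC (circles), BNST (squares) and vHPC (triangles), with filled symbols for an adjusted p under 0.05. Hist1h4m lies far to the left in the mPFC and vHPC and Hist1h4c in the vHPC, Hist1h4a and Hist4h4 far to the right, and every BNST symbol is open.

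Hist1h4m had the largest differences of all members in the mPFC. This H4 gene of 402 exon bases lies at chr13:21811746-21812147 and shares most of its sequence with Hist1h4n. Its lowest, median and highest levels in the mPFC were −2.66, −0.32 and 1.56 log2 CPM in B6 controls, −4.86, −0.23 and 0.68 in B6 resilient mice and −5.28, −4.80 and −4.42 in B6 susceptible mice. In D2 they were −6.05, −5.29 and −4.60 in controls and −6.42, −5.47 and −4.05 in susceptible mice. Susceptible B6 mice were all below B6 controls, and D2 mice were low whether stressed or not.

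The fold change of Hist1h4m was −4.56 ± 0.76 (SE) in susceptible against control B6 mice (adjusted p = 0.00556) and −3.30 ± 0.76 against resilient B6 mice (adjusted p = 0.0306). In D2 against B6 controls it was −5.02 ± 0.76 in the mPFC (adjusted p = 7.62e-06) and −4.56 ± 0.25 in the vHPC (adjusted p = 4.30e-14). These values rest on few reads. All 6 susceptible B6, all 6 control D2 and 7 of 8 susceptible D2 libraries of the mPFC were below the value that 1 read would have had, so the sizes of these changes depend on the offset used for 0 reads. The gene was kept in the mPFC table through other libraries. Its calls there, also between stress groups, are thus selected in part by the filter on low counts. In the BNST at most 3 reads of Hist1h4m were seen in any library, and it was not tested.

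The B6 values of Hist1h4m in the mPFC were split by the prefix of the mouse ID, also within the control and resilient groups. The 9 B6 mice with the prefixes C1 and C2, 5 controls and 4 resilient mice, lay between −0.81 and 1.56 log2 CPM. The 9 with C5 and C7 lay between −5.28 and −2.66, and these were 1 control at −2.66, 2 resilient mice at −4.86 and −4.77, and all 6 susceptible mice. No susceptible B6 mouse had the prefix C1 or C2. The split was thus also seen among resilient mice alone, where the 2 mice of C5 lay with the susceptible mice and apart from the 4 of C1 and C2 at −0.27 to 0.68. With the prefix in the fit the fold change of Hist1h4m was −1.57 ± 0.50 against controls (adjusted p = 0.489) and −1.14 ± 0.51 against resilient mice (adjusted p = 1), and 0 of the 39 members passed in either comparison, as did 0.0% of all genes in limma. The prefix bears on the strain comparison as well, since 5 of the 6 B6 controls of the mPFC had C1 or C2. D2 mice of the mPFC overlapped in Hist1h4m with the B6 mice of C5 and C7 and not with those of C1 and C2. All B6 mice of the vHPC had C1 or C2, so the split could not be followed there. The labels do not say what the prefix stands for.

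Hist1h4n, the H4 gene that shares 80.9% of its stretches with Hist1h4m, was ordered the other way. It lay between 0.63 and 1.42 log2 CPM, with a median of 1.03, in the C1 and C2 mice, and had a median of 1.95 in the C5 and C7 mice, of which 1 was at 1.08 and the other 8 were above all C1 and C2 mice. The sum of the 2 genes had medians of 3.39, 3.66 and 3.83 CPM in B6 control, resilient and susceptible mice and 3.67 and 3.55 CPM in D2 control and susceptible mice of the mPFC. All groups overlapped in this sum. In Hist1h4m alone, susceptible B6 mice and both D2 groups lay below all B6 controls. Resilient B6 mice overlapped there with both control and susceptible B6 mice. In the vHPC, by contrast, the sum had medians of 3.53 CPM in B6 controls and 1.51 CPM in D2 controls.

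**Figure D3:**
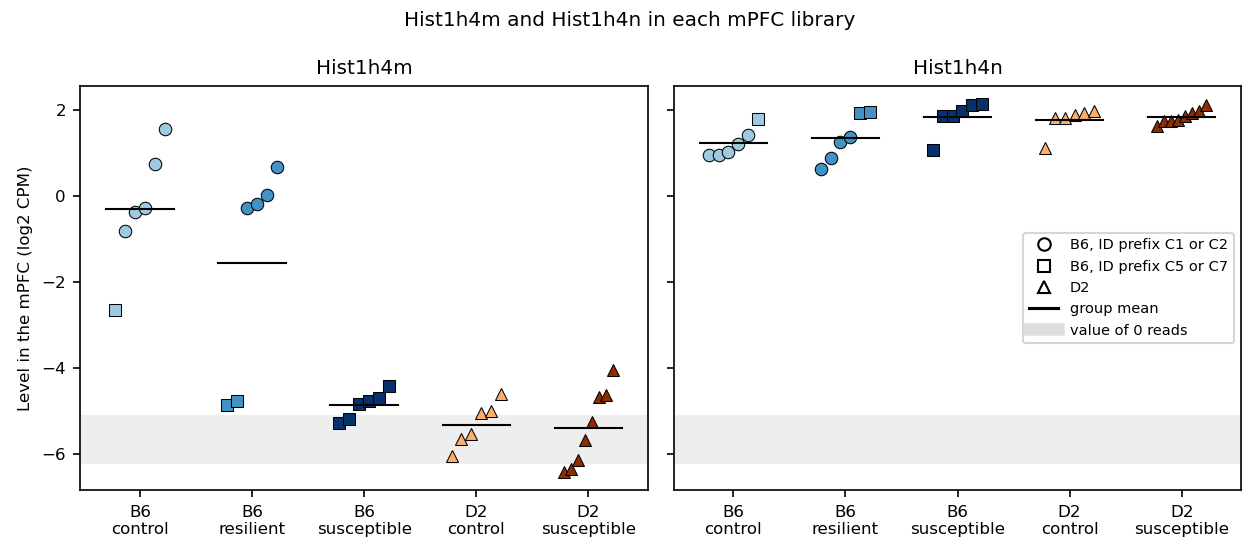
Level of Hist1h4m (left) and Hist1h4n (right) in each mPFC library (log2 CPM) by group, with circles for B6 mice of the ID prefixes C1 and C2, squares for C5 and C7, triangles for D2, lines for group means and a grey band for the value of 0 reads. The circles lie between −0.81 and 1.56 for Hist1h4m and the squares between −5.28 and −2.66, while for Hist1h4n the squares are mostly above the circles.

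CSDS comparisons in the mPFC gave few other calls. In susceptible against control B6 mice 2 of 39 members passed, Hist1h4m and Hist1h2af, both lower, beside 2.22% of all genes that passed. In susceptible against resilient B6 mice 3 passed, Hist1h4m, Hist1h2af and Hist1h1b, all lower, beside 2.02% of all genes that passed. The groups did not overlap for 1 member in the first comparison and 3 in the second, beside 1.47% and 1.68% of all genes. With library set in the fit, only Hist1h4m passed against controls, beside 0.206% of all genes, and 0 members against resilient mice, beside 0.0106%. Leaving out any 1 of 6 mice, B6 resilient mice 2, 3 or 4 or B6 susceptible mice 2, 5 or 6, also left 0 members against resilient mice. Resilient against control B6 mice gave 0 of 39, with 0 at an unadjusted p under 0.05, beside 0.0% of all genes in limma. Susceptible against control D2 mice gave 0 of 39, with 1 at an unadjusted p under 0.05, again beside 0.0%. The difference between the strains in the response to susceptibility passed for 0 of 39, with 6 at an unadjusted p under 0.05, beside 0.0%.

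Hist1h2af, an H2A gene, had lowest, median and highest levels of −0.58, 0.50 and 1.33 log2 CPM in control, 0.22, 0.58 and 1.02 in resilient and −1.87, −1.27 and 0.03 in susceptible B6 mice. Susceptible mice overlapped with controls and lay below all resilient mice. The fold changes were −1.46 ± 0.38 against controls (adjusted p = 0.0406) and −1.71 ± 0.38 against resilient mice (adjusted p = 0.0306). These 2 comparisons share the susceptible mice. With library set in the fit neither passed (adjusted p = 0.103 and 0.0937 in limma). Within the prefixes C5 and C7, the control was at −0.53 and the resilient mice at 0.22 and 0.54.

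Hist1h1b, an H1 gene, was 2.25, 2.57 and 2.78 log2 CPM in resilient and 1.57, 1.85 and 2.02 in susceptible B6 mice (lowest, median, highest), without overlap. The fold change was −0.71 ± 0.17 (adjusted p = 0.0306), which did not pass with library set in the fit (adjusted p = 0.0968 in limma). Within C5 and C7 the resilient mice were at 2.32 and 2.54, above all susceptible mice, and the control was at 1.79. Mki67, a marker of dividing cells, was also lower in susceptible than in resilient B6 mice, at −1.075 ± 0.288 (adjusted p = 0.0469). It was the only call among 23 genes of S phase and the cell cycle in this comparison. Oligodendrocyte markers moved with these calls too, with 2 of 4, Mbp and Mobp, lower in susceptible than in resilient B6 mice and 4 of 4 lower than in controls. Their sums were 874.8 to 1757 CPM in control, 940.6 to 1661 CPM in resilient and 640.5 to 1040 CPM in susceptible B6 mice, which overlapped. Their part was not tested.

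In the BNST no member passed in any of the 7 comparisons by edgeR. The background was 0.0% of all 17515 genes in every comparison but 2, susceptible against resilient B6 mice at 0.00571% and D2 against B6 controls at 2.51%. Unadjusted p values under 0.05 were found for 0 of 40 members in resilient against control B6 mice, 1 in susceptible against control B6 mice, 1 in resilient and 1 in susceptible against control D2 mice, 0 in susceptible against resilient B6 mice, and 2 in the difference of the response between the strains. DESeq2 called 0 in the first 5 of these and 1 in the last, Hist1h2bc, beside 1.27% of all genes there.

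Hist1h2bc, an H2B gene with at least 199 reads in every BNST library, showed this most clearly. Its levels were 4.33, 4.55 and 5.42 log2 CPM in control, 4.56, 4.84 and 5.37 in resilient and 4.894, 5.302 and 5.453 in susceptible B6 mice (lowest, median, highest). In D2 they were 3.73, 4.56 and 4.92 in control, 3.598, 3.872 and 4.418 in resilient and 3.63, 3.75 and 4.08 in susceptible mice. Susceptible mice were toward the top of the control range in B6 and toward its bottom in D2, with overlap in both strains. The fold changes were 0.53 ± 0.21 in B6 (adjusted p = 0.709) and −0.66 ± 0.22 in D2 (adjusted p = 0.601), and their difference was −1.19 ± 0.30 (adjusted p = 0.107 in edgeR). Hist1h2bc was looked at in this region after its values were seen. Oligodendrocyte markers had median sums of 2842 CPM in control and 4755 CPM in susceptible B6 mice and of 4187 and 1735 CPM in D2. The groups overlapped in both strains. Their ranges were 1431 to 4441 CPM in control and 2682 to 5870 CPM in susceptible B6 mice, and 1503 to 7080 and 1139 to 3508 CPM in D2. The part of these markers was not tested.

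The 2 libraries that stood apart were picked by the sum of these same members. That many members were extreme in them follows in part from this choice, so the shares below are a description only. B6 susceptible mouse 3 had the highest level of 27 of the 40 members tested (67.5%), beside 17.5% of all tested genes, and D2 control mouse 2 the lowest of 28 (70.0%), beside 28.1%. The median distance of the members from the median of the other libraries was 1.54 on the log2 scale in the first and −2.47 in the second. Hist1h4d, for example, had 2247 reads in the first and 64 in the second. Other short RNAs without poly(A) tails, such as Rmrp and Rpph1, summed to 5655 CPM in the first, 90.4 CPM in the second and 414.9 to 1916 CPM in the other 26. Replacement and variant histones with polyadenylated mRNA summed to 613.3 and 223.2 CPM beside 264.8 to 427.5 CPM. Without these 2 libraries 1 member passed in susceptible against control B6 mice (Hist1h2ad), beside 2.75% of all 17434 genes in that fit, 3 in susceptible against resilient B6 mice (Hist1h2ad, Hist1h2bn and Hist1h4f), beside 7.26%, and 2 in D2 against B6 controls, beside 3.33%.

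**Figure D4:**
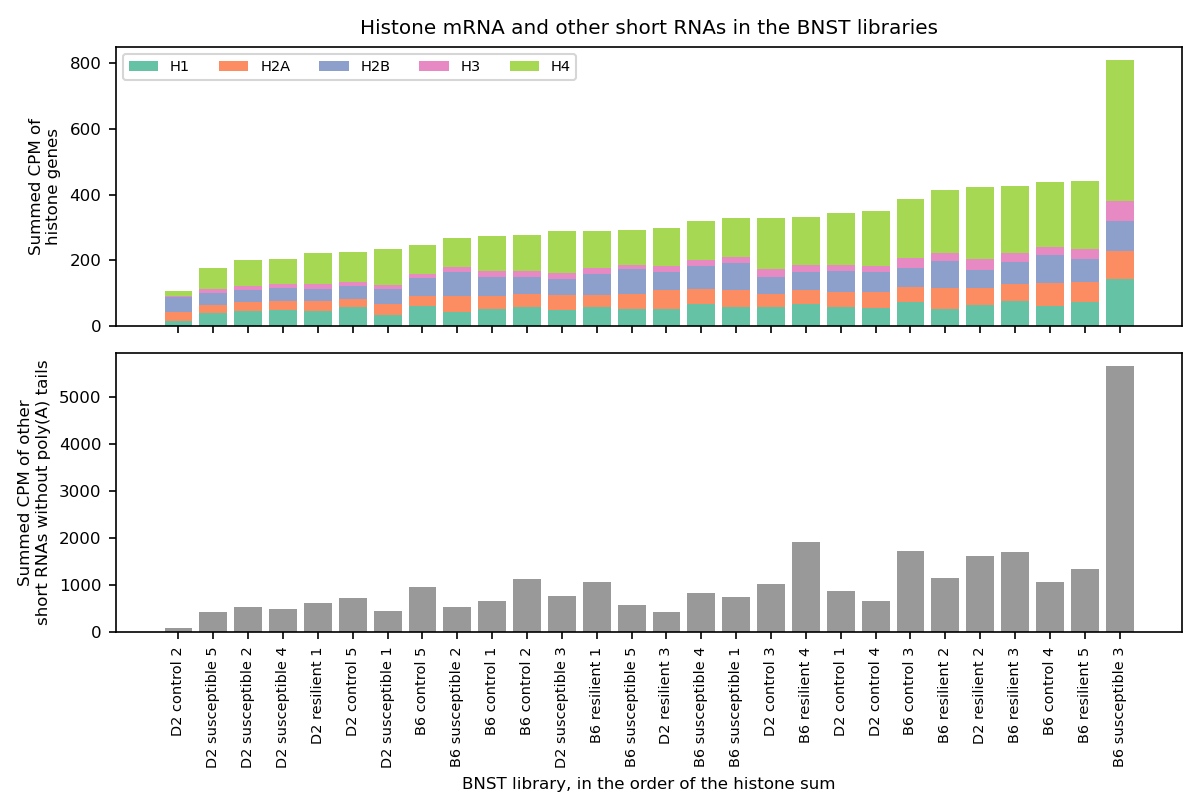
Sum of the histone genes of each class (CPM, upper bars) and of other short RNAs without poly(A) tails (CPM, lower bars) in each of the 28 BNST libraries, in the order of the histone sum. D2 control mouse 2 is lowest in both at 107.3 and 90.4 CPM, and B6 susceptible mouse 3 is highest in both at 809.0 and 5655 CPM.

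The vHPC held the most calls between stress groups. In resilient against control B6 mice 7 of 29 members passed, 3 higher and 4 lower, beside 4.94% and 5.9% of all genes. In susceptible against control B6 mice 12 passed, 4 higher and 8 lower, beside 20.5% and 20.1%. In susceptible against resilient B6 mice 7 passed, 1 higher and 6 lower, beside 14.1% and 13.6%. In susceptible against control D2 mice 4 passed, 2 higher and 2 lower, beside 1.54% and 2.74%. In these 4 comparisons the groups did not overlap for 3, 13, 4 and 2 members, beside 3.13%, 37.7%, 13.3% and 4.98% of all genes. The difference of the response between the strains passed for 0 of 29, with 8 at an unadjusted p under 0.05 and a lowest adjusted p of 0.0657 for Hist1h2bc, beside 0.782% of all genes in limma.

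Hist1h4c was lower in every defeated group than in its controls. Its levels in the vHPC were 5.35 to 5.77 log2 CPM in control, 4.13 to 4.97 in resilient and 3.72 to 4.10 in susceptible B6 mice, and 2.29 to 3.17 in control and 1.35 to 2.06 in susceptible D2 mice. Neighbouring groups of this order did not overlap. The fold changes were −0.95 ± 0.14 in resilient (adjusted p = 3.27e-05) and −1.64 ± 0.18 in susceptible B6 mice (adjusted p = 2.46e-07) against controls, and −0.75 ± 0.16 in susceptible D2 mice (adjusted p = 0.00418).

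Hist1h4m was ordered in the same way and Hist1h4a in the opposite way. Hist1h4m had medians of 1.42, 0.13 and −0.76 log2 CPM in control, resilient and susceptible B6 mice and of −2.90 and −4.25 in control and susceptible D2 mice. Its changes were −1.33 ± 0.24, −2.45 ± 0.31 and −1.06 ± 0.27 in the same 3 comparisons, and 2 of 6 control and 4 of 5 susceptible D2 mice were below the value of 1 read. In D2 the change of Hist1h4m turned direction with library set in the fit (0.07 ± 0.60) and with quantile normalization (0.22 ± 0.28). Hist1h4a had medians of −0.15, 0.71 and 1.17 in B6 and of 2.804 and 3.509 in D2, without overlap between neighbouring groups, and changes of 0.93 ± 0.12 (adjusted p = 4.93e-06), 1.37 ± 0.16 (adjusted p = 4.06e-07) and 0.70 ± 0.14 (adjusted p = 0.00188). Hist1h4i and Hist4h4 were higher in both defeated B6 groups, by 0.63 ± 0.13 and 0.67 ± 0.15 in resilient and 0.50 ± 0.16 and 0.63 ± 0.20 in susceptible mice, and Hist1h4i also in susceptible D2 mice by 0.60 ± 0.14.

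Of the 7 H2A and H2B genes that were lower in D2 than in B6 controls of the vHPC, 2 passed as lower in resilient and 4 in susceptible B6 mice. These comparisons share the B6 controls with that of the strains, so part of this overlap is built in. The share among all genes picked in the same way was not computed, and these counts do not set the members apart. Hist1h2ac had changes of −0.69 ± 0.17 in resilient and −1.17 ± 0.22 in susceptible B6 mice. Hist1h2bc had changes of −0.38 ± 0.10 and −0.99 ± 0.14, and Hist1h2bb of −0.77 ± 0.19 in susceptible mice. Hist3h2a passed there at −0.26 ± 0.07, and Hist3h2ba, which was higher in D2, at 0.35 ± 0.11. Hist1h2be, Hist1h2bg and Hist2h2be, at −0.21 ± 0.16, −0.21 ± 0.13 and −0.18 ± 0.11 in susceptible mice, did not pass. The H1 genes Hist1h1c and Hist1h1a passed as lower in susceptible B6 mice against controls, at −0.70 ± 0.15 and −0.44 ± 0.14, and against resilient mice, at −0.41 ± 0.14 and −0.45 ± 0.14. Against resilient mice, Hist1h4m, Hist1h4c, Hist1h2bc and Hist3h2a were lower at −1.12, −0.70, −0.61 and −0.17, and Hist1h4a was higher at 0.44.

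Hist1h4d, the most abundant H4 gene of the vHPC per kb, had lowest, median and highest levels of 4.62, 4.93 and 5.02 log2 CPM in control, 4.63, 4.81 and 4.99 in resilient and 4.71, 4.72 and 4.89 in susceptible B6 mice. In D2 they were 4.56, 4.78 and 5.14 in controls and 4.625 and 5.117 (lowest and highest) in susceptible mice. All groups overlapped. The interval of its change was −0.25 to 0.15 in resilient, −0.36 to 0.16 in susceptible B6 mice and −0.19 to 0.26 in susceptible D2 mice, each 95% and on the log2 scale.

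The batches of the vHPC bear on all these values. Control B6 mice shared no library set with any defeated B6 mouse, so no value within a set can be had for these comparisons, and a fit with the set compares them only through other groups. With the library set in the fit, the calls were 0 in resilient and 1 in susceptible B6 mice against controls, 0 in susceptible against resilient B6 mice and 0 in susceptible D2 mice, beside 0.21%, 1.03%, 0.0% and 0.0153% of all genes in limma. In sequencing set 1 alone 11 passed in susceptible against control B6 mice, from 2 susceptible mice and beside 29.9% of all genes. That set held 1 resilient B6 and 1 susceptible D2 mouse, so nothing is read from it for the other comparisons. All control B6 mice were in set 1, and all resilient B6 mice but mouse 4 were in set 2. All control D2 mice but mouse 4 were in set 1, and all susceptible D2 mice but mouse 5 were in set 2. Stress and sequencing set can thus hardly be told apart in these 2 comparisons. Their calls with sequencing set in the fit were fewer and are given at the end. Set 1 of library preparation held 2 resilient B6 mice at 4.46 and 4.55 log2 CPM of Hist1h4c and 1 susceptible at 3.75. Set 8 held 1 control D2 mouse at 2.295 and 1 susceptible D2 mouse at 2.06, and for Hist1h4a the same mice were at 3.03 and 3.29.

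Levels by group are given for 2 genes outside the family, Mcm6 and Rprl3, which were chosen after their values were seen and stand for no other genes. In the vHPC Mcm6, part of the helicase that opens DNA for replication, had medians of 5.021, 4.135 and 3.301 log2 CPM in control, resilient and susceptible B6 mice and of 1.93 and 1.16 in control and susceptible D2 mice. Rprl3, a copy of the RNA of RNase P, had medians of −5.59, −1.36 and −0.32 in B6 and of 7.00 and 9.53 in D2. In the mPFC, Mcm6 had medians of 3.67, 3.77 and 3.58 in the B6 groups and 1.52 and 1.44 in the D2 groups. The strain comparison and the B6 stress comparisons share the B6 controls, and the strain comparison and the D2 stress comparison share the D2 controls, so these orders are given as levels only. The 4 oligodendrocyte markers had median sums of 1824, 1421 and 1016 CPM in B6 and 729.6 and 667.5 CPM in D2, and the 3 endothelial markers of 244.1, 219.6 and 189.5 CPM in B6 and 167.0 and 157.0 CPM in D2. Other markers also moved in susceptible against control B6 mice. The neuron markers Rbfox3, Syt1 and Stmn2 were higher, at 0.475 ± 0.115, 0.446 ± 0.114 and 0.272 ± 0.084. Gja1 of astrocytes and Olig2 of oligodendrocyte precursors were higher too, while Slc1a3 of astrocytes and C1qa and Csf1r of microglia were lower. The part of all these markers was not tested.

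**Figure D5:**
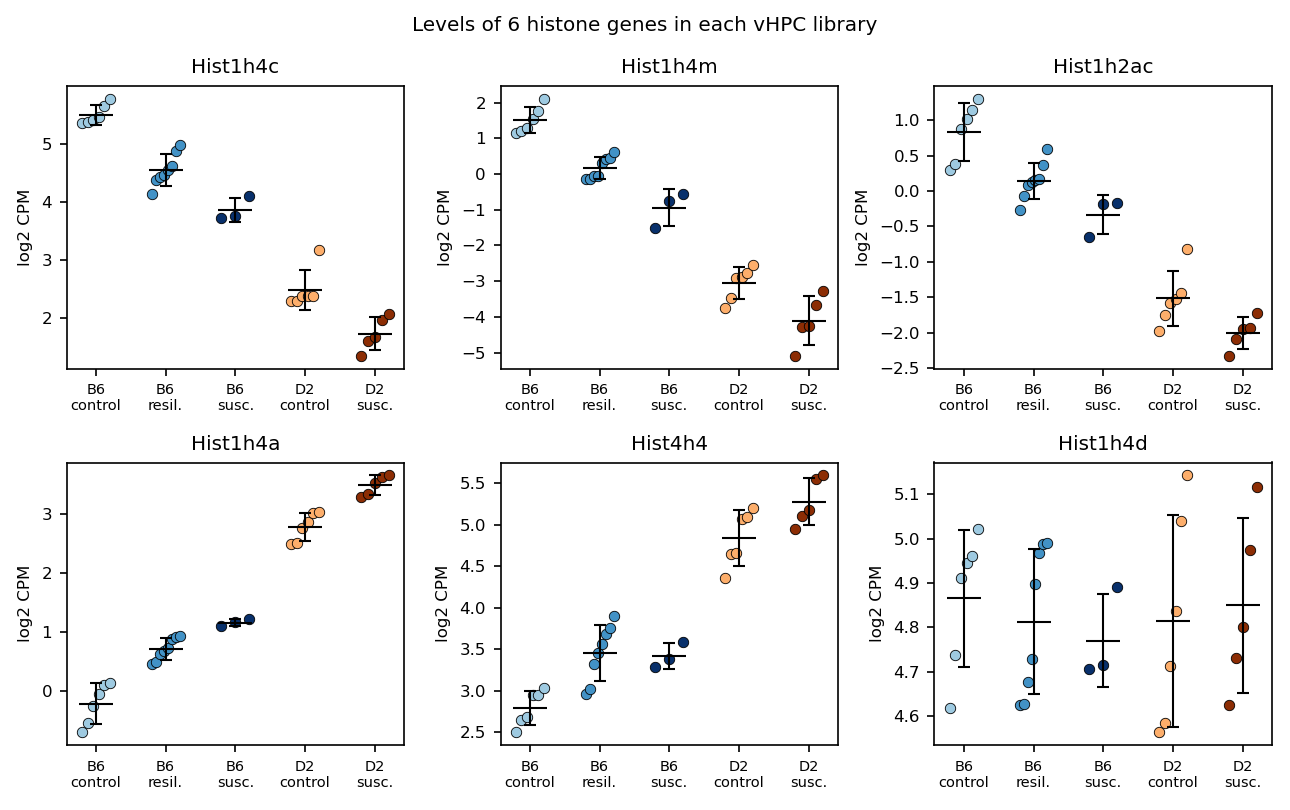
Level (log2 CPM) of 6 histone genes in each vHPC library by group, with points for mice and bars for the group mean ± SD. Each panel has its own axis. Hist1h4c, Hist1h4m and Hist1h2ac are lower and Hist1h4a and Hist4h4 higher in D2 than in B6 controls, and all groups of Hist1h4d overlap between 4.56 and 5.14.

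The members were also summed by class. In the mPFC, H2B genes summed to 71.3 to 100.1 CPM in B6 and 54.1 to 67.9 CPM in D2 controls and H2A genes to 37.7 to 48.6 and 26.9 to 36.9 CPM, without overlap. H4 genes, of which some were higher and some lower in D2, summed to 127.8 to 177.2 and 123.1 to 174.7 CPM and overlapped. In the vHPC, H4 genes also overlapped, with 109.2 to 132.6 CPM in B6 and 89.4 to 139.6 CPM in D2 controls, while H2B genes did not, with 50.7 to 58.7 and 31.0 to 37.6 CPM. Of the 12 tested H4 genes in the vHPC, 4 passed as higher and 2 as lower in D2, and of the H1 genes 3 of 5 passed, all lower. These counts are to be read beside 30.2% of all vHPC genes that were higher and 29.1% that were lower.

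Other genes of the pathway were compared between the strains from lists. Of 20 genes that make and process histone mRNA tested in the mPFC, 4 were higher and 4 lower in D2 controls, among them Lsm11, part of the U7 particle that cuts histone mRNA, at 0.56 ± 0.14 (adjusted p = 0.00245), and Ctif, which takes part in translation of newly exported mRNA, at 0.36 ± 0.08. Of all mPFC genes 13.4% were higher and 14.4% lower. In the vHPC 8 of 20 were higher and 3 lower, with Zfp473, a zinc finger protein of histone mRNA 3′ end processing, among those higher (adjusted p = 7.26e-07) and Ctif at 0.66 ± 0.10, beside 30.2% and 29.1% of all vHPC genes, so that these 11 of 20 are near the share of all genes that passed. In the BNST 0 of 20 passed in edgeR, with 4 at an unadjusted p under 0.05. Of replacement and variant histones, 0 of 12 passed between the strains in the mPFC and 0 of 11 in the BNST, and in the vHPC 4 were higher and 1 lower in D2, among them H2afx at 0.69 ± 0.11 and H3f3a at 0.29 ± 0.07, again beside 30.2% and 29.1% of all genes. Of S phase and cell cycle genes, 2 were higher and 8 lower of 23 in the mPFC, 1 and 1 of 21 in the BNST, and 5 and 9 of 21 in the vHPC, to be read beside the same shares of all genes and beside 2.51% in the BNST. Mcm6 was the gene with the smallest p in each region, at −2.15 ± 0.12, −2.10 ± 0.27 and −3.05 ± 0.09.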

How the data were processed

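For the mPFC and vHPC the authors deposited log2 CPM, made with voom. They had trimmed reads (Cutadapt 1.8.3 in the vHPC), removed duplicates with PRINSEQ 0.20.4, aligned to GRCm38 with STAR 2.5.0c, counted on exons with HTSeq 0.6.1 (Ensembl release 86), kept genes with at least 1 CPM in 6 samples, and after voom adjusted for batches with ComBat. The BNST table holds the deposited whole-number counts, without these last steps. How duplicate removal acts on such short genes, and how the batch adjustment acts on the spread, was not tested.

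BNST genes with at least 1 CPM in 6 libraries were fitted with TMM factors (0.656 to 1.272) and edgeR 4.0.16's robust quasi-likelihood test, and BNST levels are log2 CPM with a prior count of 0.5. The mPFC and vHPC values were fitted with limma 3.58.1 (robust empirical Bayes), both in R 4.3.3. All groups of a region were in the fit, tests were two-sided, and Benjamini-Hochberg values were adjusted over all genes. Fold changes are log2 ± SE. Every mouse gave 1 library per region, and the labels do not give litters or cages. A counting error can be had from the BNST counts alone.

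Members named are those called in a comparison (the 6 largest changes each way where over 12 were called), the highest per kb of each class and Hist1h4m, with up to 4 called genes from other lists, and others named were chosen after their values were seen. The members and lists were chosen with earlier results of these data known. Alternatives were DESeq2 1.42.0, RLE scaling, library sizes without TMM, other filters, quantile normalization, no robust option, batch covariates, fewer groups or sets, and leaving out mice. Library sizes without TMM, sequencing set 1 alone and leaving out both extreme BNST libraries were chosen after seeing the data. Methods were tested on simulated data. Some marker genes are not reported here and are in no sum.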

Additional observations from a re-analysis of the deposited data

Results flagged for a closer look

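Within 165 groups of 4 to 10 mice, the highest or lowest mouse was tested for its gap to the nearest other mouse relative to the range of the group, and 12 values passed. Chance flags about 1 in 20 groups, so that several of these may be chance.

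In the BNST, B6 susceptible mouse 3 was far above its group in the sums of H1 (141.9 CPM), H2A (87.3 CPM), H3 (58.7 CPM) and H4 genes (429.4 CPM), and D2 control mouse 2 was far below its group in the sum of H1 genes (15.8 CPM). These are the libraries that stood apart in the sum of all members. B6 control mouse 4 of the BNST had the highest H2B sum of its group, 84.5 CPM.

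In the mPFC, D2 control mouse 3 was the lowest of its group in Hist1h4i (1.93 log2 CPM), Hist1h4n (1.11) and Hist3h2a (3.37). B6 control mouse 5 was the highest of its group in Hist1h4c (3.154), and B6 susceptible mouse 4 in the H2A sum (45.2 CPM). In the vHPC, D2 control mouse 5 was the highest of its group in Hist1h4c, at 3.17 log2 CPM, where the next mouse was at 2.38.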

How the results depend on the processing

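No paired analysis was possible because no mouse is in more than 1 group of a region and its number within a group is only a name. Leaving out each mouse in turn gave 14 to 17 members called between D2 and B6 controls in the mPFC, 0 to 1 in the BNST (1 without B6 control 5 or D2 control 2) and 19 to 21 in the vHPC. For susceptible against control B6 mice in the mPFC it gave 1 to 4, with 4 without control 6 and 1 without controls 1, 3, 4 or 5 or susceptible mice 2, 4, 5 or 6. For susceptible against resilient B6 mice it gave 0 to 4 in the mPFC, with 0 without resilient mice 2, 3 or 4 or susceptible mice 2, 5 or 6, and 2 to 13 in the vHPC, with 13 without resilient mouse 7 and 2 or 3 without any susceptible mouse. In the vHPC it gave 6 to 8 for resilient and 10 to 13 for susceptible B6 mice and 3 to 4 for susceptible D2 mice against controls, and for the difference between strains 0 to 1 in the vHPC (1 without D2 control 5 or D2 susceptible 1) and BNST (1 without B6 control 4 or D2 control 5). With library set as a covariate the mPFC gave 1 and 0 in susceptible B6 mice against controls and resilient mice, the BNST 1 between strains (Hist1h4k), and the vHPC 0 for resilient and 1 for susceptible B6 mice, 0 for susceptible D2 mice, 0 against resilient mice and 7 between strains. With sequencing set as a covariate the vHPC gave 3 for resilient B6 and 2 for susceptible D2 mice, and in sequencing set 1 alone 0 for each, 0 against resilient mice and 1 for the difference between strains, each from an arm of 1 mouse, which says nothing about stability. With mouse ID prefix as a covariate both B6 susceptible comparisons of the mPFC gave 0, and the strain difference of the response in the BNST 1, and between strains it could not be fitted. With only the groups compared in the fit, susceptible B6 mice gave 1 in the mPFC against controls and 3 in the vHPC against resilient mice, and the difference between strains 1 in the mPFC and 2 in the vHPC. With a mean of at least 1 log2 CPM, the mPFC gave 0 for susceptible B6 mice, since Hist1h4m and Hist1h2af were not tested. Quantile normalization gave 3 for the difference between strains in the vHPC. DESeq2 gave 1 (Hist1h4k) between strains and 1 (Hist1h2bc) for the difference of the response in the BNST. Without the 2 extreme BNST libraries the calls were 1 and 3 in susceptible B6 mice against controls and resilient mice, and 2 between strains. Hist1h4m turned direction in susceptible D2 mice of the vHPC with library set as a covariate (0.074) and with quantile normalization (0.219). Other causes of these shifts were not tested. Counts under RLE scaling, without TMM, without a count filter and without the robust option were within 1.5 times those reported. Depth limits Hist1h4m and 11 BNST members with a median under 20 reads per library.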
